A study of Homo sapiens with 6 samples.

Results

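The RNAs described here are long noncoding and antisense transcripts that gave a clear array signal in MCF10A, a human breast epithelial cell line that forms no tumours. Their genes were picked by name and signal: the symbol starts with LINC or SNHG, ends in -AS1, -AS2 or -IT1, has the form MIR...HG for a microRNA host gene, or is MALAT1, NEAT1, H19, MEG3, GAS5 or PVT1. Each gene was represented by the brightest probe set naming that gene alone, and its mean log2 value over all 6 samples had to be at least 5. Of 19775 genes measured, 1677 had such a name and 106 reached that level, while the other 1571 lay below it. The level chose the RNAs, and the difference between the groups did not, but an RNA bright in 1 group alone could pass only through that group. Among the 106, 18 had a mean under 5 in the shFRY samples and 10 had a mean under 5 in the control samples.

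The study asked how an shRNA against FRY changes gene expression; FRY is the human counterpart of Drosophila furry and encodes a large protein that binds NDR kinases. The control group was 3 samples of an MCF10A clone stably transfected with a non-targeting shRNA (MCF10A-CV), and the shFRY group was 3 samples of an MCF10A clone stably transfected with an shRNA directed at FRY (MCF10A-shFRY). Both clones were selected with puromycin and grown in mammary epithelial basal medium with epidermal growth factor at 20 ng/ml, insulin at 10 µg/ml, hydrocortisone at 5 µg/ml and pituitary extract. Total RNA was taken at 70% confluence and the cDNA made from it, labelled with biotin, was read on 1-colour arrays. Each construct is represented by 1 clone, so clone and shRNA cannot be told apart. Within a group the samples came from different passages, and the p-values reflect that spread alone.

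Long noncoding RNAs are transcribed and mostly spliced and polyadenylated like messenger RNAs but encode no known long protein. Some serve as hosts: small nucleolar RNAs, which guide chemical modification of ribosomal RNA, or microRNAs are cut out of the host's introns or exons. Others stay in the nucleus, as MALAT1 does in nuclear speckles, and many run antisense to a protein-coding gene, often from a shared or neighbouring promoter. In bulk RNA, fewer cells making a transcript and less transcript per cell cannot be told apart.

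The label of the shFRY clone was first checked on FRY itself. Its 4 probe sets were all dimmer on average in the shFRY samples, by 0.32 to 0.75 on the log2 scale. One of them, of the _s_at kind, passed the test over all probe sets (control values 4.23, 3.55 and 3.81, shFRY values 2.88, 3.31 and 3.14, difference -0.75, limma adjusted p = 0.0223), and the groups did not overlap there. The brightest differed by -0.49 with overlapping groups and did not pass (limma adjusted p = 0.203). All 4 had means under the level of 5, from 2.86 to 4.93. Markers of the line were present: all 5 measured had means of 9.35 or more. KRT17, KRT6A and TP63 were also listed but had no probe set naming that gene alone. Of the 5, KRT14, EGFR, ITGA6 and CDH1 were higher in shFRY. The summed level of the 5 was 13.58 to 13.72 in shFRY against 13.01 to 13.09 in control. The summed levels of the 5 fibroblast markers (5.35 to 5.60 in control, 5.35 to 5.48 in shFRY), the 3 immune markers (3.92 to 4.46, then 3.60 to 3.82) and the 4 adipocyte markers (4.18 to 4.40, then 4.04 to 4.34) were low, with no gene of the 3 lists at a mean of 5; PTPRC, an immune marker, was lower in shFRY (-1.06). Of 4 endothelial markers PECAM1 alone reached it, and their summed level was 7.95 to 8.01 in control and 7.43 to 7.67 in shFRY, where KDR was lower. The hormone receptor genes ESR1 and PGR, which the line lacks, summed to 3.20 to 3.38 and 3.30 to 3.54, with PGR higher (0.35) at a mean of 1.51. Beta-actin probe sets at the 3′ end exceeded those at the 5′ end by 2.52 ± 0.19 in control and 2.87 ± 0.03 in shFRY (SD, n = 3 each; difference 0.35, two-sided exact permutation p = 0.1, which is the lowest value this design can give), whereas the same measure for GAPDH was -0.09 and -0.07 (exact p = 0.4).

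With a limma adjusted p of 0.05 over all genes as threshold, 18 of the 106 RNAs were higher in the shFRY samples and 44 were lower, while 44 did not pass. The share of all genes called was 13.7% higher and 16.0% lower (29.8% in all), and among the 8250 genes with a mean of at least 5 it was 22.8% higher and 27.4% lower (50.2% in all). Of the noncoding RNAs 17.0% were thus called higher and 41.5% lower. Their median difference was -0.34 on the log2 scale, beside -0.05 for all genes of that level and 0.03 for all genes. Among the 1571 dimmer genes with such names, 68 were higher and 82 lower, with a median difference of 0.06. At least 2-fold differences were found for 6 higher and 11 lower RNAs (6.04% and 6.02% of the genes of that level, 3.42% and 4.08% of all genes). The 3 samples of each group did not overlap for 77 of the 106 RNAs, or 72.6%, and for 68.2% of the genes of that level (44.2% of all genes). Of the 18 RNAs with a mean under 5 in shFRY 14 were called lower, and of the 10 with a mean under 5 in control 7 were called higher, so part of the calls sits where the rule let an RNA pass through its brighter group.

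The beta-actin measure moved with the groups, and its part in these counts was not tested separately from the shRNA. With that measure as a covariate the calls fell to 5 higher and 4 lower, and those over all genes fell from 5889 to 1026. Of the 62 called RNAs all kept their sign, the median size of the difference went from 0.70 to 0.62, and the median standard error from 0.13 to 0.24. The RNAs still called were LINC02806, SNHG32, SNHG17, LINC00623 and PVT1 among the higher, and SERTAD4-AS1, IDI2-AS1, NR2F1-AS1 and ADD3-AS1 among the lower.

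**Figure D1:**
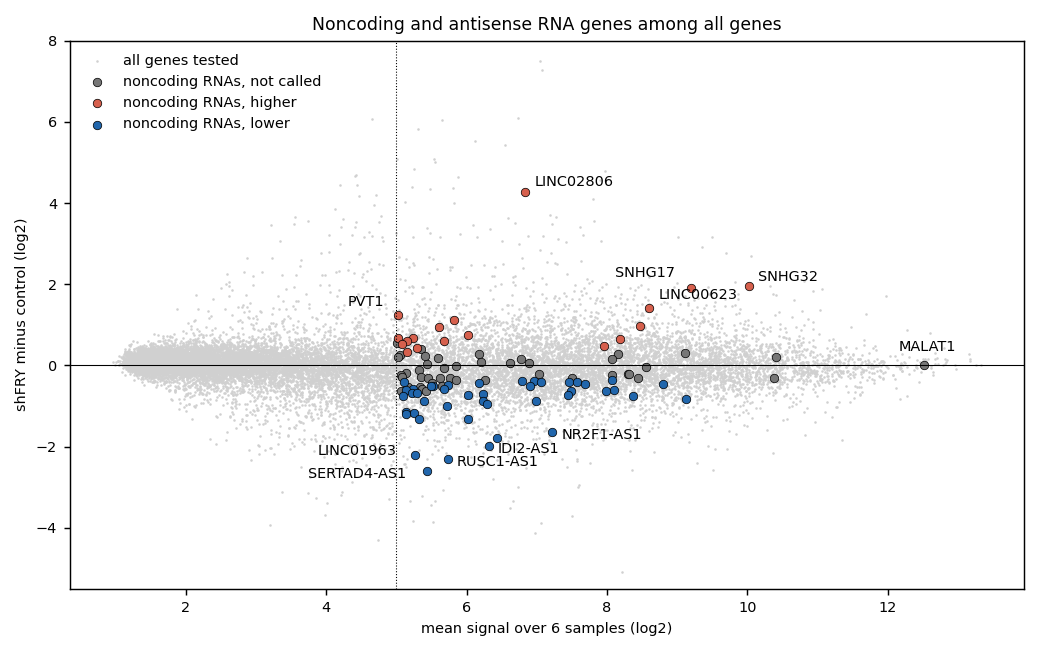
Each of the 106 RNAs is a large point over all genes tested in light grey, with the mean log2 value over all 6 samples on the x axis and the shFRY minus control difference (log2) on the y axis; colours mark RNAs called higher, lower or not called by limma, and the dotted line is the level of 5. LINC02806 stands at 4.28 above the other rises, which end at 1.95, and the 44 lower RNAs reach down to -2.59.

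The 5 small nucleolar RNA host genes went in both directions. SNHG32 and SNHG17 rose, SNHG33 and GAS5 fell, and SNHG19 did not pass the test. Many genes of this kind are known to begin with a run of pyrimidines (C or T) at the first bases of the transcript, and 60 bases around the annotated start are therefore shown for these genes and for THAP9-AS1 and EPB41L4A-AS1, antisense RNAs that also hold small nucleolar RNA genes. Each runs 5′ to 3′ along the gene from 20 bases before the start to 40 bases from it, from RefSeq on GRCh38.p14, and capitals mark a pyrimidine run of at least 6 bases that begins within 10 bases of the start. The starts used in these cells were not measured, so a window without capitals does not show that the RNA lacks such a run. SNHG33 has another annotated start, not printed, which had no such run either. The windows lie at chr20:38435289-38435348 on the minus strand (SNHG17), chr6:31834896-31834955 on the plus strand (SNHG32), chr16:2155319-2155378 on the minus strand (SNHG19), chr1:173869006-173869065 on the minus strand (GAS5), chr3:183447588-183447647 on the plus strand (SNHG33), chr4:82900877-82900936 on the minus strand (THAP9-AS1) and chr5:112160506-112160565 on the plus strand (EPB41L4A-AS1).
SNHG17: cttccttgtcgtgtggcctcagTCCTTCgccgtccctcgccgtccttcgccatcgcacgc
SNHG32: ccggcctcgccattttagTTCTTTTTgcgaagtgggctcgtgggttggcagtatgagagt
SNHG19: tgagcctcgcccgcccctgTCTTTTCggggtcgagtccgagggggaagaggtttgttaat
GAS5: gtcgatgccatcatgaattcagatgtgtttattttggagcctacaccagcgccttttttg
SNHG33: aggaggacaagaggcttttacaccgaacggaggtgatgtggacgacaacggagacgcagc
THAP9-AS1: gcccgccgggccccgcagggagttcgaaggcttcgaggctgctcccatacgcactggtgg
EPB41L4A-AS1: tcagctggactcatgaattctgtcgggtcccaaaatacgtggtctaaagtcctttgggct

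SNHG32, which holds SNORD48 and SNORD52, had log2 values of 9.24, 8.82 and 9.07 in the control samples and 11.05, 11.02 and 10.92 in the shFRY samples. All 3 shFRY samples were above all 3 controls, by more than the spread within either group. The difference was 1.95 (SE 0.13, limma adjusted p = 2.69e-05), a 3.87-fold rise. It rests on 1 probe set, of the _s_at kind, which can match several transcripts. SNHG17, host of SNORA71A to SNORA71D, had 8.23, 8.24 and 8.27 in control and 10.18, 10.16 and 10.10 in shFRY. Its groups were far apart and each was tight (SD 0.02 and 0.04), with a difference of 1.90 (SE 0.09, limma adjusted p = 5.58e-06). The other SNHG17 probe set rose by 1.79. The probe set for SNORA71B, 1 of the small RNAs inside SNHG17, read 4.08 in control and 4.17 in shFRY and was not called (limma adjusted p = 0.745), although a cDNA array made from total RNA is not designed to measure RNAs this short.

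GAS5, which holds 11 annotated small nucleolar RNA genes and whose spliced RNA is known to build up when growth stops, had values of 7.07, 7.35 and 7.07 in control and 6.35, 6.83 and 6.78 in shFRY. Every shFRY sample was lower than every control, but the gap was narrow. The difference was -0.51 (SE 0.15, limma adjusted p = 0.0386). That call was lost when control sample 1, 2 or 3 or shFRY sample 1 was left out (adjusted p = 0.0749, 0.128, 0.0681 and 0.0860). Only 1 probe set named GAS5 alone, and 4 that also name other genes were not read. SNHG33, which holds SNORA63D and SNORA63E, had 5.76, 5.80 and 5.75 in control and 5.29, 5.30 and 5.20 in shFRY, again without overlap, and fell by 0.51 (SE 0.09, limma adjusted p = 0.00392). Its other probe set fell too. SNHG19, host of SNORD60, gave 10.50, 10.51 and 10.62 in control and 10.09, 10.21 and 10.36 in shFRY. Those groups do not overlap, yet the difference of -0.32 (95% interval -0.57 to -0.08) had an adjusted p of 0.0528.

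Counting by gene position in place of name, 9 of the 106 RNAs contain an annotated small nucleolar RNA gene: 4 were higher, 3 lower and 2 not called, or 5 higher and 2 lower when EPB41L4A-AS1 is read from its other probe set. Strand was not compared in this count. Among genes with a mean of at least 5, 22.8% were higher and 27.4% lower. THAP9-AS1, which holds SNORD143 and SNORD144, was among the 4 higher RNAs, with 7.80, 8.03 and 8.12 in control and 9.07, 8.87 and 8.96 in shFRY. All shFRY samples exceeded the controls (difference 0.98, SE 0.12, limma adjusted p = 5.20e-04), in the 1 probe set of this RNA, of the _s_at kind. EPB41L4A-AS1, which holds SNORA13, gave opposite answers from its 2 probe sets. The one chosen by mean signal, of the _s_at kind, had 8.37, 8.46 and 8.39 in control and 7.70, 7.72 and 7.98 in shFRY, a difference of -0.61. The other had 6.75, 6.92 and 7.13 in control and 9.20, 9.01 and 8.91 in shFRY, a difference of 2.11 (limma adjusted p over all probe sets = 3.24e-05). Neither pair of groups overlaps, the mean signals that decided the choice were 8.10 and 7.99, and no direction is given here for this RNA.

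Genes of the RNA machinery were read as 6 lists, beside the 13.7% of all genes called higher and the 16.0% called lower. Among genes with a mean of at least 5, which most list genes have, these shares were 22.8% and 27.4%. The lists held 13 higher and 13 lower calls in all. With the beta-actin covariate 3 and 1 were made, and without control sample 3 or without shFRY sample 1 the lower calls were 7. The first list holds proteins that bind and assemble small nucleolar RNAs. Of 14 measured (16 listed) RUVBL1, an ATPase of the assembly machinery, was higher by 0.41, and SHQ1, NHP2 and SNU13 were lower by 0.59, 0.37 and 0.37, while 10 did not pass; the list's median difference was -0.08. Spliced host RNAs are known to be broken down by nonsense-mediated decay, and of 10 measured decay factors (16 listed) SMG5 (0.90) and NBAS (0.65) were higher and none lower, with a median of 0.25. All 17 genes listed for the nuclear RNA exosome and its adaptors were measured: ZCCHC8 (0.92), RBM7 (0.64), EXOSC7, MTREX and EXOSC1 were higher, none was lower, and the median was 0.03.

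Of the genes with a mean of at least 5, 50.2% passed the test. All 3 microRNA host genes passed it, MIR100HG and MIR99AHG higher and MIR550A3HG lower. The first pair are related by the microRNAs inside them, and the mature sequences are shown for that reason, with the seed (bases 2 to 8) in capitals, from RefSeq on GRCh38.p14. MIR100HG on the minus strand of chromosome 11 holds hsa-miR-100-5p (chr11:122152275-122152296), hsa-let-7a-5p (chr11:122146568-122146589) and hsa-miR-125b-5p (chr11:122099809-122099830). MIR99AHG on the plus strand of chromosome 21 holds hsa-miR-99a-5p (chr21:16539101-16539122), hsa-let-7c-5p (chr21:16539838-16539859) and a copy of hsa-miR-125b-5p (chr21:16590253-16590274).
hsa-miR-100-5p: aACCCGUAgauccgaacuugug
hsa-miR-99a-5p: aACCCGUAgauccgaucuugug
hsa-let-7a-5p: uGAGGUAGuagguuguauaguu
hsa-let-7c-5p: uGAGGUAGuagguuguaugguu
hsa-miR-125b-5p: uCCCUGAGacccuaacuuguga
hsa-miR-550a-3p: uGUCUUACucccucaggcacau

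Counted from 1 at the 5′ end, hsa-miR-99a-5p differs from hsa-miR-100-5p by A16U and hsa-let-7c-5p from hsa-let-7a-5p by A19G, both outside the shared seeds. The mature microRNAs were not measured here. MIR100HG had 7.96, 7.94 and 7.66 in control and 8.56, 8.63 and 8.32 in shFRY, with every shFRY sample higher (difference 0.65, SE 0.13, limma adjusted p = 0.00644). Its other probe set was not called. MIR99AHG had 4.61, 4.72 and 4.74 in control and 5.38, 5.73 and 4.96 in shFRY; its groups did not overlap, but the shFRY samples were spread (difference 0.67, SE 0.18, adjusted p = 0.0262). Without control sample 1, 2 or 3 or shFRY sample 1 or 2 the MIR99AHG call was lost (adjusted p = 0.0558 to 0.0904), and its other probe sets, near 1.60 and 1.73, differed by 0.43 and 0.06 without passing.

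MIR550A3HG, host of the hsa-miR-550a-3p listed above at chr7:29680748-29680769 on the minus strand, had 6.11, 5.77 and 6.05 in control and 5.36, 5.03 and 5.77 in shFRY. Its groups touch, since shFRY sample 3 and control sample 2 both read 5.77. The difference was -0.59 (SE 0.19, limma adjusted p = 0.0472), and the call was lost without any 1 of 5 samples, all but shFRY sample 3 (adjusted p = 0.0541 to 0.148). Its other probe set was lower too (difference -0.44, groups not overlapping, limma adjusted p over all probe sets = 0.0174). By position 8 of the 106 RNAs contain a microRNA gene, of which 3 were higher, 3 lower and 2 not called. Strand was not compared, so an RNA in this count need not be the host. The shares for genes with a mean of at least 5 were 22.8% higher and 27.4% lower. Among 12 measured genes of microRNA processing (13 listed) the Argonaute genes AGO3 (1.05) and AGO2 (0.65) and the exporter XPO5 (0.35) were higher, and 5 were lower: TNRC6B (-0.80), TNRC6A (-0.70), TARBP2 (-0.48), AGO1 and DROSHA. The median of that list was -0.18.

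MALAT1, a nuclear RNA held in speckles, read 12.61, 12.63 and 12.32 in control and 12.56, 12.70 and 12.31 in shFRY. The groups lie on top of each other, with a difference of 0.00 (95% interval -0.32 to 0.32, limma adjusted p = 0.998). None of its 12 probe sets was called, their differences running from -0.30 to 0.23. Among 12 measured speckle and SR protein genes (13 listed) SRSF4 (0.82) and SRSF7 (0.40) were higher and SRSF5 (-0.71) lower, with a median of 0.10. NEAT1, the scaffold of paraspeckles, could not be followed, because its 9 probe sets also carry other gene symbols, as do both probe sets of H19. Of 11 measured paraspeckle protein genes (12 listed) CPSF6 (-0.98), NUDT21 (-0.73), RBM14 (-0.65) and SFPQ (-0.40) were lower, none was higher, and the median was -0.27. That is 36.4% lower, beside 27.4% of the genes with a mean of at least 5. MEG3 had a mean of 4.27, below the level used, and differed by -0.13 (limma adjusted p = 0.504).

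PVT1, the noncoding neighbour of MYC, had 4.45, 4.53 and 4.22 in control and 5.74, 5.31 and 5.87 in shFRY. Every shFRY sample was above every control (difference 1.24, SE 0.16, limma adjusted p = 7.82e-04). MYC, the growth-promoting transcription factor gene next to it, read 10.05 ± 0.11 in control and 11.24 ± 0.03 in shFRY (SD, n = 3 each), a difference of 1.19 (adjusted p = 9.21e-05). For PVT1 only 1 probe set named the gene alone, and 4 that also name other genes were not read.

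Among the 27 RNAs with LINC symbols 5 were higher (18.5%) and 12 lower (44.4%), with a median difference of -0.45. For genes with a mean of at least 5 the shares were 22.8% and 27.4%. LINC02806 showed the largest difference of the 106 RNAs: 4.80, 4.68 and 4.61 in control against 9.03, 8.997 and 8.89 in shFRY. The control samples were all under the level of 5 and the shFRY samples all far above it. The difference was 4.28 (SE 0.10, limma adjusted p = 2.51e-07), or 19.4-fold. Its other probe sets gave 4.32 and 4.02, each also called, while the genes on either side, LINC01731 (-0.12) and PDE4DIPP6 (0.16), were not called. LINC00623 had 7.81, 7.94 and 7.94 in control and 9.24, 9.24 and 9.46 in shFRY, without overlap (difference 1.42, SE 0.11, adjusted p = 5.63e-05), from a probe set of the _x_at kind, which can match several transcripts. LINC02693 was higher as well, with 4.87, 5.12 and 5.79 in control and 6.54, 6.32 and 6.27 in shFRY (difference 1.12, SE 0.22, adjusted p = 0.00599), through 1 probe set of 4. LINC00662 was higher in 4 of its 5 probe sets, of which 1 differed by 2.004, and the brightest had 5.35, 5.68 and 5.90 in control and 6.35, 6.37 and 6.42 in shFRY (difference 0.74).

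LINC01963 had 6.02, 6.62 and 6.49 in control and 3.48, 3.97 and 5.03 in shFRY. All shFRY samples were lower, and they were more spread than the controls (SD 0.80 against 0.32). The difference was -2.22 (SE 0.36, limma adjusted p = 0.00230). LINC00205 had 5.73, 5.66 and 5.80 in control and 4.49, 4.12 and 4.99 in shFRY (difference -1.19, SE 0.20, adjusted p = 0.00272), and 4 of its 7 probe sets were lower. Other falls were LINC00641 (-1.15), LINC00342 (-0.96) and LINC00938 (-0.72), named here after their values were seen. Just inside the level minimum lay LINC02481, MIR99AHG and PVT1 with means of 5.01, 5.02 and 5.02, and just outside it LINC03026, MCM3AP-AS1 and HLA-F-AS1 with 4.99, 4.95 and 4.95; their differences were 0.55, 0.67 and 1.24 inside and -0.49, -0.27 and -0.29 outside.

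**Figure D2:**
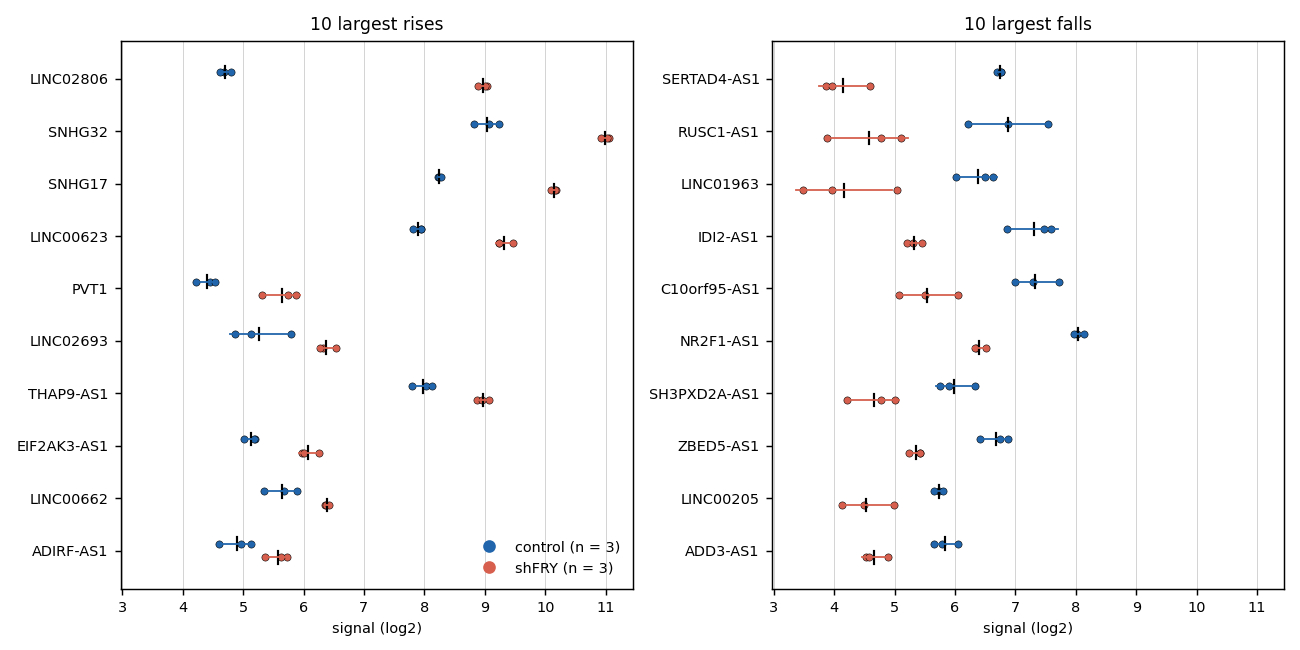
The log2 signal of each control and shFRY sample (x axis, 1 point per sample) is drawn for the 10 largest rises and the 10 largest falls without overlap; the short upright bar is the mean and the line the SD of 3 samples. LINC02806 goes from under 5 to 8.97 and SNHG17 from 8.25 to 10.15, while SERTAD4-AS1 falls from 6.74 to 4.14.

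The promoters of LINC02806 and SERTAD4-AS1, the largest rise and the largest fall, are printed because the RNAs lie at the ends of the range. Each stretch has 300 bases, from 250 before the annotated start to 50 from it, from RefSeq on GRCh38.p14, at chr1:148279018-148279317 on the plus strand for LINC02806 and chr1:210233836-210234135 on the minus strand for SERTAD4-AS1. Capitals mark TATAAA, 187 bases before the LINC02806 start, and TGATGNAAT, the composite C/EBP-ATF motif, found on the opposite strand 45 bases before that start. In SERTAD4-AS1 capitals mark TGACTCA, the AP-1 motif, 48 bases before the start. A match describes the letters in the window and is not a measured binding site.
LINC02806: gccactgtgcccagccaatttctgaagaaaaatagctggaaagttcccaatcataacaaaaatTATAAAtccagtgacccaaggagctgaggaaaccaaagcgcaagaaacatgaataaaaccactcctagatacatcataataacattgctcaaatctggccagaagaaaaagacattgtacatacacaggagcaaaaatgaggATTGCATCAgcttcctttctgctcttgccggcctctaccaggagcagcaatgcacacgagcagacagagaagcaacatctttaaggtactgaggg
SERTAD4-AS1: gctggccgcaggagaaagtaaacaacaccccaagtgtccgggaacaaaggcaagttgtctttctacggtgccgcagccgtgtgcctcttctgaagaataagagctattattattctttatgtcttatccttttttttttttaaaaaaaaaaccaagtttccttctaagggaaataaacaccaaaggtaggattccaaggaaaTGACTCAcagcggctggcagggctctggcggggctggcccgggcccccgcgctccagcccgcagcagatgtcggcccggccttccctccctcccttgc

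Promoters were in the RefSeq table for 85 of the 106 RNAs, and 10 motifs were searched on both strands, apart from the pyrimidine run and TATAAA, which were read along the gene only. The pyrimidine run at the start was found in 23 of the 85, that is 5 of 14 higher, 5 of 35 lower and 13 of 36 not called, which is 27.1% of them. A gene can have several annotated starts: counted by gene the run was found in 29.2% of all genes in the table, and counted by promoter in 24.7% of all 35116. The other shares are given by gene and then by promoter. TATAAA, the core of the TATA box, was in 8 (8.99% and 7.33%), and TGATGNAAT in 3, those of LINC02806, MIR99AHG and ZNF649-AS1 (1.22% and 0.991%). TGACTCA was in 4 (6.05% and 4.95%), the E-box CACGTG in 4 (8.77% and 7.26%) and the cAMP response element TGACGTCA in 2 (2.25% and 1.85%). The 2 NF-kappaB motifs were in 1 (0.227% and 0.191%) and 0 (0.179% and 0.145%), and the E2F motifs TTTGGCGC and TTTCCCGC in 2 (0.795% and 0.652%) and 1 (1.98% and 1.63%). A run or motif of 1 kind can overlap another, and such counts say nothing about the factors.

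Antisense RNAs made up 67 of the 106, and 8 were higher (11.9%) and 28 lower (41.8%), with a median difference of -0.32. Genes with a mean of at least 5 were called higher in 22.8% of cases and lower in 27.4%. SERTAD4-AS1 fell from 6.69, 6.76 and 6.76 in control to 3.87, 3.96 and 4.60 in shFRY. No shFRY sample came within 2 log2 units of a control (difference -2.59, SE 0.18, limma adjusted p = 4.20e-05). NR2F1-AS1, transcribed beside the nuclear receptor gene NR2F1, had 8.01, 7.97 and 8.14 in control and 6.51, 6.35 and 6.34 in shFRY; the groups were tight and apart (difference -1.64, SE 0.10, adjusted p = 2.25e-05), and its other probe sets fell by 1.57 and 1.73. RUSC1-AS1 had 6.88, 7.54 and 6.21 in control and 4.77, 5.10 and 3.88 in shFRY. Both groups were wide but did not overlap (difference -2.30, SE 0.38, adjusted p = 0.00268), and the other probe set fell by 2.56.

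IDI2-AS1 read 7.59, 7.48 and 6.86 in control and 5.45, 5.21 and 5.30 in shFRY, with every shFRY sample lower (difference -1.99, SE 0.19, limma adjusted p = 1.62e-04). C10orf95-AS1, from an _x_at probe set, read 6.99, 7.72 and 7.29 in control and 5.07, 5.51 and 6.05 in shFRY. It too fell in every shFRY sample (difference -1.79, SE 0.27, adjusted p = 0.00150). Further large falls among antisense RNAs were those of SH3PXD2A-AS1 (-1.33), ZBED5-AS1 (-1.32), ADD3-AS1 (-1.17) and THUMPD3-AS1 (-0.99). The rises were smaller: after THAP9-AS1 came EIF2AK3-AS1 (0.95, adjusted p = 5.49e-04) and ADIRF-AS1 (0.67). EIF2AK3-AS1 had 5.02, 5.20 and 5.18 in control and 6.26, 5.97 and 6.01 in shFRY, with no overlap. DSG2-AS1, with a mean of 10.40, differed by 0.21 (95% interval -0.05 to 0.47) and was not called.

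Smaller falls were seen in RNAs with a strong signal too, 2 of which are given here after their values were seen. FGD5-AS1 had 9.59, 9.47 and 9.55 in control and 8.59, 8.72 and 8.84 in shFRY, and OTUD6B-AS1 had 8.59, 8.84 and 8.83, then 8.14, 7.91 and 7.91. In both RNAs every shFRY sample was lower, by 0.82 and 0.76 on average (limma adjusted p = 6.62e-04 and 0.00190). OIP5-AS1, by contrast, differed by -0.20 (95% interval -0.44 to 0.04) and was not called. Of the intronic transcripts SPRY4-IT1 fell by 0.61 (limma adjusted p = 0.00497), and GABPB1-IT1 differed by -0.43 with overlapping groups (adjusted p = 0.0968).

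A sense partner, the gene named by the symbol without its suffix, was measured for 65 of the 69 antisense and intronic RNAs. Partners were higher in 10 cases (15.4%) and lower in 17 (26.2%), where 13.7% and 16.0% of all genes were called, and 22.8% and 27.4% of those with a mean of at least 5. Without control sample 1 the higher partners were 5, and with the beta-actin covariate 3 were higher and 4 lower. Of the 35 such RNAs that were called, 13 had a partner called in the same direction, 4 one called in the opposite direction and 18 one not called. The 13 include EPB41L4A-AS1, read from its chosen probe set, although no direction is given here for that RNA. The differences of RNA and partner had the same sign in 41 of 65 pairs, and their correlation across pairs was 0.52, a description over pairs measured on the same 6 arrays. Whether the labelling keeps strand is not stated in the labels used here, and where a pair overlaps, signal of the sense and antisense RNA cannot be told apart.

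The largest falls in partners were those of SERTAD4 and NR2F1. SERTAD4 had 7.13, 7.14 and 7.19 in control and 2.56, 3.38 and 4.02 in shFRY, with no overlap and a difference of -3.84 (SE 0.31, limma adjusted p = 7.86e-05). NR2F1 had 8.20, 8.24 and 8.24 in control and 4.83, 5.21 and 5.66 in shFRY, a difference of -2.996 (SE 0.19, adjusted p = 2.47e-05). Both partners fell by more than their antisense RNAs did, as measured by different probe sets. RUSC1 (-1.33), ADD3, an adducin of the membrane skeleton (-1.28), and ZBED5 (-0.49) fell with their antisense RNAs, and EIF2AK3, the stress kinase PERK (0.62), and TRAF3IP2, an adaptor of IL-17 signalling (1.39), rose with theirs. TRAF3IP2-AS1 itself passed narrowly, with 0.42 (limma adjusted p = 0.0498) from the brightest of its 5 probe sets.

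The 4 opposite pairs had a lower antisense or intronic RNA and a higher partner. SH3PXD2A-AS1 read 6.33, 5.75 and 5.89 in control and 4.77, 4.21 and 5.00 in shFRY, while SH3PXD2A, the podosome scaffold TKS5, read 5.54, 5.44 and 5.26, then 6.63, 6.26 and 6.40 (difference 1.02, limma adjusted p = 6.76e-04). Neither of these overlapped between groups. The others were MAPKAPK5 (0.69 against -0.39), SPRY4, an inhibitor of receptor tyrosine kinase signalling (0.67 against -0.61 for SPRY4-IT1), and ST20 (0.34 against -0.48). Several partners changed beside an RNA that was not called, among them TRAM2 (-1.67), OIP5 (-1.04) and WAC (0.99). IDI2 (-0.08), THAP9 (0.19) and C10orf95 (-0.39) were not called although their antisense RNAs were.

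**Figure D3:**
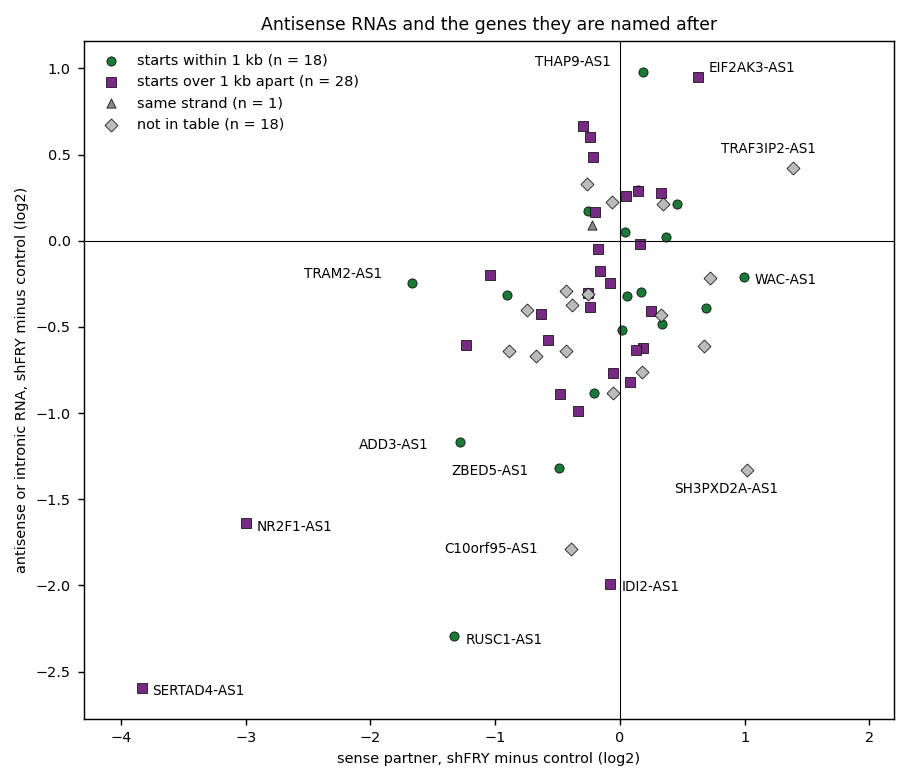
Each point is 1 of 65 pairs, with the shFRY minus control difference of the sense partner on the x axis and that of the antisense or intronic RNA on the y axis, both in log2 units; colour and shape give how the annotated starts lie. SERTAD4 with SERTAD4-AS1 and NR2F1 with NR2F1-AS1 lie far down on both axes, and SH3PXD2A lies to the right with its antisense RNA below 0.

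Pairs were also sorted by the distance between annotated starts. With starts within 1000 bases of each other (18 pairs), 3 were called in the same direction and 2 in opposite directions, and with starts farther apart (28 pairs) 6 were called in the same direction and 0 in opposite directions. The 6 include EPB41L4A-AS1, read from its chosen probe set. Its other probe set was called the other way, which would make that pair opposite. The SERTAD4 and NR2F1 pairs fell just past that limit, with starts 1089 and 1222 bases apart. In 18 pairs the table did not give both starts, and 1 pair was annotated on the same strand.

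The nearest measured genes on either side were examined for the called RNAs. Of 124 such neighbours 33 were called in the same direction as the RNA (26.6%) and 12 in the opposite direction (9.68%), beside 20.3% and 13.9% around called genes of that level in general. Without control sample 1 or shFRY sample 1 the neighbours called in the same direction were 18 and 20, without _x_at and _s_at probe sets 18, and with the beta-actin covariate 4. Sense partners that lie next to the RNA are among them, as is EPB41L4A, for which EPB41L4A-AS1 was read from its chosen probe set. IDI1, next to IDI2-AS1, encodes an isopentenyl diphosphate isomerase of cholesterol synthesis and fell from 11.68 ± 0.12 to 9.96 ± 0.19 (SD, n = 3 each; difference -1.72, limma adjusted p = 5.39e-05). FDPS, the farnesyl diphosphate synthase gene next to RUSC1-AS1, fell by 0.75 (adjusted p = 0.00264). USP25, a deubiquitinase gene next to MIR99AHG, rose by 0.79. Among the 12 opposite neighbours were SETD5 (0.83) beside THUMPD3-AS1, STN1 (0.60) beside SH3PXD2A-AS1 and B3GNT5 (0.57) beside SNHG33. These neighbours rose where the RNA fell.

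The 106 RNAs had 229 probe sets in all, 60 RNAs having more than 1. Of the 34 called RNAs with several probe sets 16 had another one called the same way, and 3 had one called the other way. Those 3 were EPB41L4A-AS1, given above, CCDC18-AS1 (0.60, with its other probe set at -0.93) and NIFK-AS1 (-0.41, with its other probe set at 0.34). NIFK-AS1 also lost its call without control sample 2 or 3 (limma adjusted p = 0.0510 and 0.0507). Probe sets ending in _s_at or _x_at, which can match several transcripts, represented 18 and 11 of the RNAs, and 12 higher and 39 lower calls were made among the 96 RNAs measured by other probe sets.

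**Figure D4:**
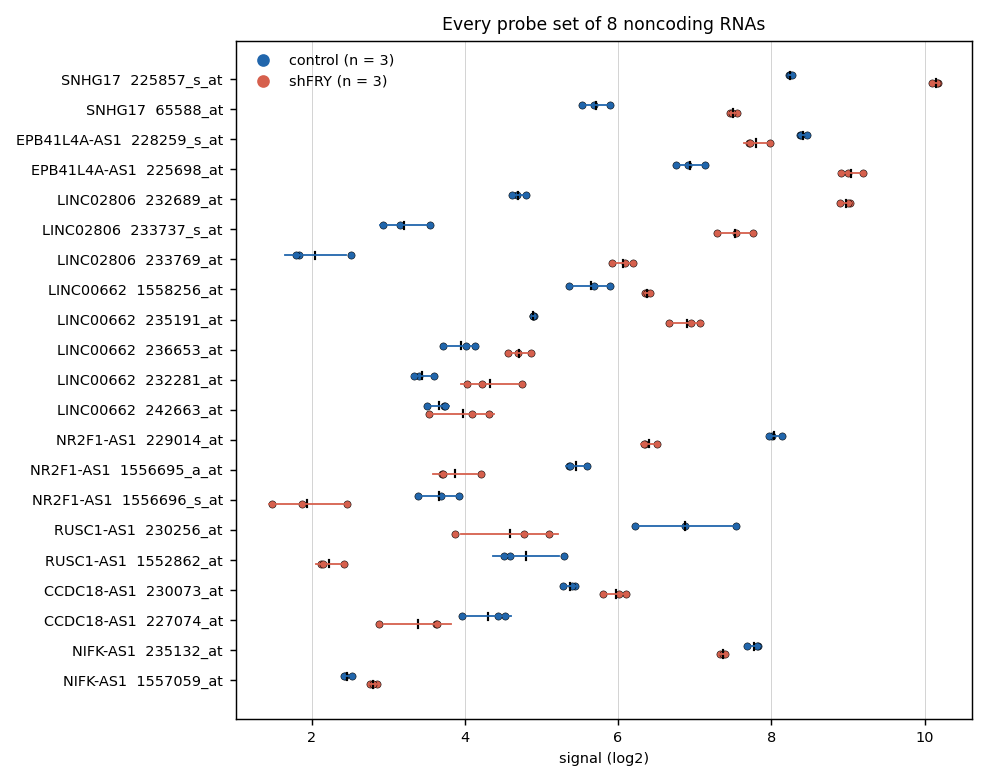
The log2 signal of each sample (x axis, 1 point per sample, with mean and SD of 3) is drawn for every probe set of 8 RNAs that were picked to show agreement and disagreement. All 3 probe sets of LINC02806 are higher in shFRY by 4.02 to 4.32, whereas the 2 of EPB41L4A-AS1 go in opposite directions, by -0.61 and 2.11.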

How the data were processed

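Expression was measured in 6 samples on arrays of their own. The values deposited by the authors are log2 values from RMA (per the submitters' processing notes, which name no version). This method commonly makes the arrays' distributions alike, so a change shared by all genes would not be seen, and it compresses differences of dim probe sets. Sample medians lay between 3.017 and 3.065. The amplification started from 40 ng of total RNA, per the labels' protocols. The number of arrays limits the precision.

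Of 54675 probe sets, 41091 had 1 symbol in the platform annotation, which can be old, 1801 had several, 11721 had none listed and 62 were controls. Symbols were updated through Entrez IDs to RefSeq of GRCh38.p14 (41037 matched), which also gave promoters, microRNAs and gene order; the array values carry no build. Each gene took the single-symbol probe set with the highest mean. The groups, from the sample titles, were compared by lmFit and eBayes of limma 3.58.1 under R 4.3.3 (4 residual degrees of freedom) over 19775 genes, or over all probe sets other than controls, with Benjamini-Hochberg adjustment and a threshold of 0.05. Gene lists are described by counts and medians, without a set test. Named RNAs are the 6 classic ones in the rule; all host genes; the 10 largest rises and 10 largest falls without overlap; the 5 with the highest mean; the 3 on either side of the level minimum; called antisense RNAs with their partners; and those whose probe sets were called in both directions. For each gene list up to 4 called genes were to be named by size; for the exosome and microRNA processing lists the other called genes are named too, and neighbouring genes by their nearness to a named RNA, all after their values were seen. The RNAs, lists and tests were chosen with earlier results of these data known.

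In simulated data on 19775 genes, the fit found 29.9% of 67 genes changed 1.5-fold, 79.1% of 67 changed 2-fold and 97.0% of 66 changed 4-fold, made 7 false calls, and called 0 when none changed. Far fewer genes were changed there than the 5889 called in the data, so these rates need not hold for the data. Alternatives were other normalizations, fits and probe set choices, the replicate number as a block, a beta-actin covariate, other level minimums, a 2-fold minimum, and each sample left out.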

Additional observations from a re-analysis of the deposited data

How the results depend on the processing

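Of 15 alternatives that refit the named RNAs, 14 measured every one and 1, without _x_at and _s_at probe sets, measured 29 of 33. The called ones kept their direction in these except for 2 whose probe sets disagree: CCDC18-AS1 turned to -0.16 when the probe sets of each gene were averaged, and EPB41L4A-AS1 to 0.75 with that mean and 2.11 without _x_at and _s_at probe sets. With the beta-actin measure as a covariate 5 RNAs were higher and 4 lower, partners were 3 higher and 4 lower, list genes 3 higher and 1 lower, 4 neighbours were called in the same direction and 3 RNAs had a second probe set called the same way; the covariate moves with the groups, and the cause was not tested. Without _x_at and _s_at probe sets 18 neighbours were called in the same direction. Over all genes, 5889 were called in the main fit, 1026 with the covariate and 4503 to 5766 with 1 sample left out. A level minimum of 6 left 52 RNAs with 8 higher and 25 lower, a minimum of 4 gave 26 and 66 of 179, and a 2-fold minimum 6 and 11. Leaving out 1 sample at a time gave 14 to 18 higher and 32 to 42 lower RNAs, 5 to 9 higher and 14 to 16 lower partners, 9 to 13 higher and 7 to 14 lower list genes, 18 to 33 neighbours in the same direction and 12 to 16 RNAs with a second probe set called the same way. Samples of equal number did not deviate together (r = -0.0002, -0.0024 and 0.0068). The labels do not say that the numbers pair them, and this check cannot exclude it. With the replicate number as a block 17 RNAs were higher and 41 lower, 17 and 39 of them shared with the fit without it. Probe sets near background give compressed differences.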
